A study of Rattus norvegicus with 6 samples.

Results

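Caspases are cysteine proteases that cut proteins after aspartate residues, and 7 of them were followed in rat liver at the level of their transcripts: Casp12, Casp1, Casp4, Casp2, Casp6, Casp8 and Casp9. All 11 non-control array probes whose RefSeq transcript maps to 1 of these symbols were taken, out of 61657 such probes on the array. Of the 11 probes, 10 were well above background on every array of at least 1 group, against 37043 of the 61657. All 7 genes had such a probe, among the 27642 genes so measured. Casp12 was singled out because its liver signal differed between dosed and vehicle animals in these same arrays, so the caspase differences between the groups are given as a description, with no test.

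The livers came from male Sprague-Dawley rats, an outbred stock bought at 5 weeks of age. Of the 6 animals, 3 were dosed daily with 400 mg/kg of TCEP, which is tris(2-chloroethyl) phosphate, an organophosphate that slows burning, and 3 were given its vehicle, corn oil. The treatment protocol gives 9 weeks of dosing for both groups, whereas the design text of the series speaks of 28 days. Total RNA of each animal was labelled with Cy3 and hybridised to 1 single-colour array, so n = 3 per group throughout. All 10 hepatocyte markers examined were well above background in both groups.

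In rodents the inflammatory caspases form a family of their own. Caspase-1 is activated in inflammasomes and matures interleukin-1 beta and interleukin-18. Caspase-4, which the rat annotation also lists under the name Casp11, senses bacterial lipopolysaccharide inside the cell and cuts gasdermin D. Caspase-12 resides at the endoplasmic reticulum in rodents, where calpain can process it, and has been linked to death under endoplasmic reticulum stress. Caspase-8 and caspase-9 are the initiators of the death receptor and mitochondrial routes of apoptosis, caspase-2 is activated in the PIDDosome, and caspase-6 is an executioner that cuts nuclear lamins.

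The genes Casp1, Casp4 and Casp12 are consecutive protein-coding genes on rat chromosome 8, while Casp2, Casp6, Casp8 and Casp9 lie on chromosomes 4, 2, 9 and 5. The promoter windows of Casp12 and Casp1 are shown because these genes of 1 cluster had different liver values and their windows carry the same element. Each window is taken from RefSeq (GRCr8, plus strand) and runs from 250 bases before to 50 bases after the annotated start, at chr8:10926938-10927237 for Casp12 and chr8:10872580-10872879 for Casp1. Capitals mark matches, on either strand, to an interferon regulatory factor repeat (GAAA, any 2 bases, GAAA) or a STAT site (TTCNNNGAA).
Casp12: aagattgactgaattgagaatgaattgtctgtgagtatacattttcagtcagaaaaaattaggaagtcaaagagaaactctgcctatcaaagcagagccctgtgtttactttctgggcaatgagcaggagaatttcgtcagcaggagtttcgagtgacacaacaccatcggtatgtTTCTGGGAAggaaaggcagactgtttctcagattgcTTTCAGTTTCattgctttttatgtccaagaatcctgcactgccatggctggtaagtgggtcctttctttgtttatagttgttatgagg
Casp1: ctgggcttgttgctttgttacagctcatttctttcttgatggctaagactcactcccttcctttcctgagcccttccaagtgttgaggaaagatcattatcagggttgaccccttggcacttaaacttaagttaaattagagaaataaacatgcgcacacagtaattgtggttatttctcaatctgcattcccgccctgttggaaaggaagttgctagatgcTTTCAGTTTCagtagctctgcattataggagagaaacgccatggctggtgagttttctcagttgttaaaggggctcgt

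Both windows held 1 match to the interferon regulatory factor repeat, on the minus strand, starting 38 bases upstream of the annotated start in Casp12 and 28 bases upstream in Casp1. The match was the same string in both genes and lay within tgcTTTCAGTTTCa, the longest stretch of 14 bases that the windows share. The repeat was found in 3.92% of 33469 promoter windows of that length, and in none of the windows of Casp2, Casp6 and Casp9. The Casp12 window also held 1 STAT match, 74 bases upstream, a motif present in 8.87% of windows. An NF-kB-like motif (GGGA, any 4 bases, CC, found in 19.3% of windows) was matched in Casp2 and Casp9, and not in Casp12, Casp1 or Casp6. Neither the endoplasmic reticulum stress element (CCAAT, any 9 bases, CCACG, found in 0.0657% of windows) nor the C/EBP-ATF element (TGATGNAA, 3.98%) had a match in any of these 5 windows. The GC content was 41.0% in Casp12 and 43.3% in Casp1, against 66.0%, 63.0% and 72.0% in Casp2, Casp6 and Casp9 and a median of 51.7% over all windows. These matches describe letters in a window, not binding. Entries for Casp4 and Casp8 were not used here.

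Casp12 had the largest difference of the 7 caspases, with a higher level in the TCEP livers. The Casp12 probe (A_42_P660129, transcript NM_130422) had processed signals of 585, 233 and 419 in the TCEP livers, against 37.3, 54.9 and 239 in the corn oil livers. Expressed as log2 signal relative to the 75th percentile of each array, the scale used from here on, these were 0.07, -1.06 and -0.32 in the TCEP livers and -3.66, -3.08 and -1.15 in the corn oil livers. The groups did not overlap, but the gap between them was only 0.10 log2 units, because corn oil replicate 3 lay close to the lowest TCEP liver. The TCEP mean was -0.44 ± 0.57 and the corn oil mean -2.63 ± 1.31 (SD, n = 3 each). The log2 difference, TCEP minus corn oil, was 2.19 ± 0.83 (SE from the group SDs), a ratio of 4.57-fold. By this difference Casp12 stood 12th of the 27642 genes in descending order. The difference was 2.93 when corn oil replicate 3 was left out, and 1.68 when corn oil replicate 1 was. With normexp background correction it was 1.37.

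**Figure D1:**
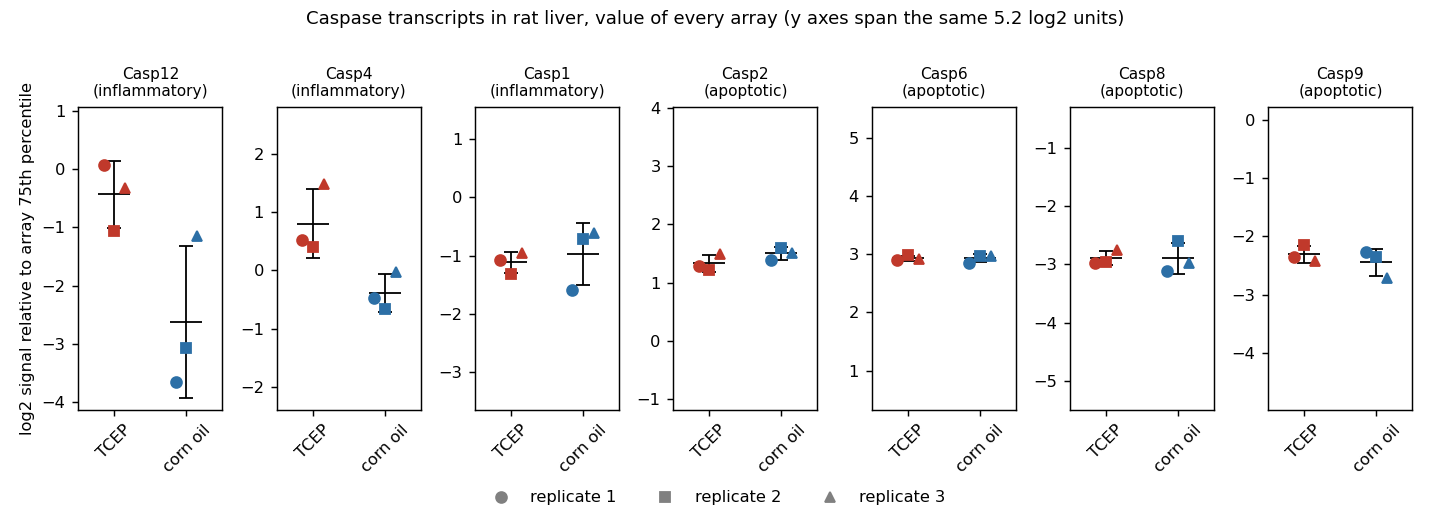
Log2 signal relative to the array 75th percentile of the 7 caspases, with 1 point per liver, TCEP left and corn oil right in each panel, black bars for group mean and SD (n = 3 each), and y axes that span the same range of log2 units. Casp12 and Casp4 lie higher in all 3 TCEP livers than in any corn oil liver, corn oil replicate 3 of Casp12 lies just under the lowest TCEP value, and the groups overlap for the other 5 genes.

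Casp12 also varied strongly among the vehicle animals themselves. Its corn oil values spanned 5.68-fold, and its corn oil SD of 1.31 exceeded that of 99.2% of the measured genes, whose median corn oil SD was 0.187. Among the TCEP livers the span was 2.18-fold and the SD of 0.57 exceeded that of 95.9% of genes. No other caspase came near this spread in corn oil, the next being Casp1 with an SD of 0.53. The array of corn oil replicate 2 was scanned later than the other 5, and leaving it out gave a Casp12 difference of 1.97. All TCEP arrays sat together on 1 slide, without any corn oil array, so slide and treatment cannot be told apart.

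Casp4 was the other caspase with groups that did not overlap. Its probe (A_44_P1028549, NM_053736) gave log2 values of 0.53, 0.40 and 1.48 in the TCEP livers, against -0.47, -0.66 and -0.03 in the corn oil livers. TCEP replicate 3 was the highest liver by almost a log2 unit, and corn oil replicate 3 was again the highest of its group. The means were 0.80 ± 0.59 in TCEP and -0.39 ± 0.32 in corn oil (SD, n = 3 each), a log2 difference of 1.19 ± 0.39 (SE from the group SDs) and a ratio of 2.28-fold. Without TCEP replicate 3 the difference was 0.85, and without corn oil replicate 2 it was 1.05. Casp4 stood 113th of all measured genes by its difference. Casp4 and Casp12 are related in sequence and each is represented by 1 probe, whose sequence is not used here, so signal shared between the probes was not tested.

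Casp1, the third gene of the cluster, did not share the higher TCEP level. Its probe (A_44_P468258, NM_012762) gave -1.07, -1.32 and -0.96 in the TCEP livers, against -1.59, -0.72 and -0.62 in the corn oil livers. All 3 TCEP values lay within the corn oil range, and the corn oil livers spanned 1.96-fold. The means were -1.12 ± 0.18 in TCEP and -0.98 ± 0.53 in corn oil (SD, n = 3 each), a log2 difference of -0.14 ± 0.32 (SE from the group SDs) that became -0.45 without corn oil replicate 1, and 0.04 when corn oil replicate 3 was left out.

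As an average, markers of Kupffer cells and other macrophages, which carry the inflammasome, moved with Casp1 across the animals. Of 15 such markers 14 were measured, and Itgam was not well above background on all arrays of either group. Their log2 values, each centred on its gene mean and averaged over the markers, were -0.08, -0.22 and 0.19 in the TCEP livers and -0.78, 0.25 and 0.64 in the corn oil livers. This placed the 6 livers in the same order as Casp1, with corn oil replicate 1 lowest and corn oil replicate 3 highest. Single markers departed from it. Lyz2 and Cd14 were lowest in TCEP replicate 2, Msr1 was lowest in TCEP replicate 1, and Lyz2 was highest in corn oil replicate 2. The other measured markers were lowest in corn oil replicate 1. The summed marker signal ranged from 165 to 203 in TCEP and from 126 to 273 in corn oil, in units of the array 75th percentile. Pycard, the adaptor that recruits caspase-1, had -0.62, -0.77 and -0.36 in TCEP and -0.95, 0.10 and -0.12 in corn oil, with the same liver lowest. The marker median log2 difference between the groups was -0.05 (-0.43 without corn oil replicate 1, and 0.24 when corn oil replicate 3 was left out). The part of macrophage number in the Casp1 values was not tested, and in bulk liver RNA fewer cells of a type and less RNA per cell cannot be told apart. Casp12 and Casp4 could not have the marker order over all 6 livers, as their lowest TCEP liver lay above their highest corn oil liver. Within the corn oil group Casp12 rose from replicate 1 to 2 to 3, as the markers did, while Casp4 was lowest in replicate 2. Within the TCEP group replicate 2 was lowest for the markers, Casp12 and Casp4. There Casp4, but not Casp12, had the full marker order. Any link of these genes to macrophage content was not tested.

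The initiators and executioners of apoptosis had overlapping groups and small differences. Casp8, the initiator below the death receptors, had -2.97, -2.96 and -2.76 in the TCEP livers and -3.11, -2.60 and -2.97 in the corn oil livers. Its difference was 0.00 ± 0.17 (SE from the group SDs), and the TCEP values fell inside the corn oil range. Casp6, the executioner that cuts lamins, was the least variable member, with 2.90, 2.98 and 2.92 in TCEP and 2.85, 2.97 and 2.97 in corn oil. Its difference was 0.00 ± 0.05, and the 6 livers were nearly alike. Casp9, the initiator activated by the apoptosome, had -2.35, -2.14 and -2.42 in TCEP against -2.27, -2.36 and -2.71 in corn oil by its brightest probe (A_44_P238608), a difference of 0.14 ± 0.16. Without corn oil replicate 3, its lowest liver, the Casp9 difference was 0.01. The other Casp9 probes gave -0.09 ± 0.17 (A_44_P121227) and 0.13 ± 0.12 (A_64_P205127), so the sign differed between probes and each value was close to or below its SE. The last of these was well above background on 2 of 3 corn oil arrays.

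Casp2, the caspase of the PIDDosome, was covered by 3 probes. The brightest (A_44_P1019923) had 1.29, 1.21 and 1.50 in the TCEP livers and 1.38, 1.60 and 1.51 in the corn oil livers, a difference of -0.17 ± 0.11 (SE from the group SDs). A second probe (A_64_P164041) gave -0.01 ± 0.11. The third (A_64_P158644) never stood well above background, so it gives no fold. Thus the groups overlapped for every measured probe of the 4 apoptotic genes.

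**Figure D2:**
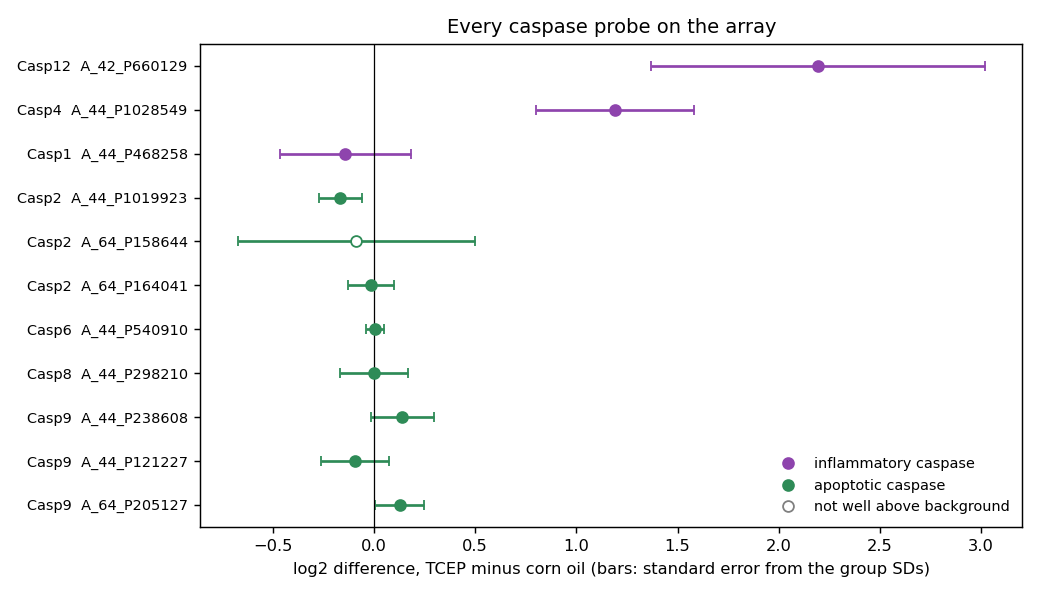
Log2 difference, TCEP minus corn oil, of each of the 11 caspase probes, with bars for the SE from the group SDs (n = 3 each), purple for inflammatory and green for apoptotic caspases, and an open symbol for the probe that was not well above background. The Casp12 probe at 2.19 and the Casp4 probe at 1.19 stand to the right, and the Casp1 probe lies at -0.14 among the apoptotic ones.

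Set side by side, 2 of the 7 caspases had TCEP values wholly above the corn oil values, 0 had them wholly below, and 5 overlapped. Over all genes, 10.3% were wholly above and 7.06% wholly below. The TCEP mean of Casp12 and Casp4 was more than 2-fold higher, as it was in 0.709% of all genes. Of all genes 50.9% had a higher TCEP mean. The inflammatory mean of Casp1, Casp4 and Casp12, each centred on its gene mean, was 0.63, 0.13 and 0.86 in the TCEP livers and -1.12, -0.70 and 0.19 in the corn oil livers. The apoptotic mean of Casp2, Casp6, Casp8 and Casp9 was -0.05, 0.00 and 0.04 in TCEP and -0.06, 0.13 and -0.07 in corn oil. The inflammatory minus the apoptotic mean was therefore 0.54 ± 0.37 in TCEP and -0.54 ± 0.70 in corn oil (SD, n = 3 each), a difference of 1.09 ± 0.46 (SE from the group SDs). These 2 groups overlapped, with TCEP replicate 2 at 0.13 below corn oil replicate 3 at 0.26. With Casp12 left out the difference was 0.53 ± 0.30, and 1.49 with all 3 inflammatory genes but without corn oil replicate 3. The class value thus joined 2 genes that were higher in TCEP with 1 that was not.

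Genes around the caspase cluster on chromosome 8 were also read. Among the 5 protein-coding genes on each side of it, 5 were measured. Their log2 differences were -0.23 ± 0.24 (SE, limma) for Gucy1a2, 0.11 ± 0.09 for Aasdhppt, 0.28 ± 0.10 for Kbtbd3, 0.06 ± 0.10 for Msantd4 and 0.03 ± 0.09 for Dcun1d5. Kbtbd3 was higher in every TCEP liver than in any corn oil liver, and the groups of the other 4 overlapped. Over all genes, 10.3% were wholly higher in TCEP and 7.06% wholly lower. These flanking genes were chosen by position after the caspase values were seen.

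The 6 genes whose array profile came nearest to that of Casp12 lay on other chromosomes. Likeness was the root mean square distance between log2 profiles over the 6 arrays, each centred on its mean, among 10438 named genes well above background on all 6 arrays. The nearest was Abo3, a blood group glycosyltransferase gene, at a distance of 0.37 log2 units, where the median gene lay at 1.38. Abo3 had 0.23, -0.55 and -0.08 in the TCEP livers and -2.88, -3.26 and -1.47 in the corn oil livers, so corn oil replicate 3 was the highest of its group here as well. A second Abo3 probe (A_44_P355907), well above background on 2 of 3 corn oil arrays, showed that pattern too, with 0.06, -0.91 and -0.38 in TCEP and -4.26, -4.75 and -2.01 in corn oil. Next came Abo at 0.53, also on chromosome 3, with 2 further probes whose log2 differences were 0.05 ± 0.24 and -0.03 ± 0.17 against 1.73 ± 0.47 for the nearest one (SE from the group SDs). H19, an imprinted noncoding RNA, followed at 0.58, then the sorting nexin Snx10 at 0.70, Nipal2 at 0.73 and the glucuronosyltransferase Ugt2b1 at 0.80. Casp4 ranked 12th at 0.88, and Casp1 ranked 2418th at 1.32. The 6 nearest genes were picked for their match to a profile dominated by the group difference. That profile includes a high corn oil replicate 3, so the height of this liver in these genes is partly built in. The distances carry no test.

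**Figure D3:**
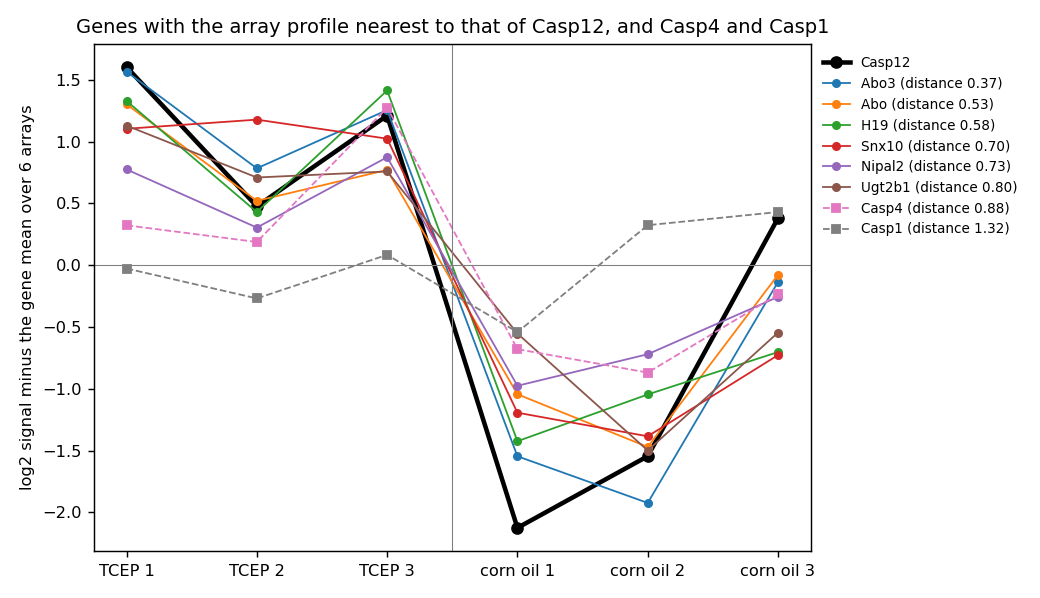
Log2 signal minus the gene mean over 6 arrays for Casp12 (thick black), the 6 genes with the nearest profile, and Casp4 and Casp1 (dashed), across the 3 TCEP and 3 corn oil livers. Corn oil replicate 3 is the highest corn oil liver for Casp12, Abo3, Abo, H19, Snx10, Nipal2, Ugt2b1, Casp4 and Casp1. In Ugt2b1 it exceeds corn oil replicate 1 only narrowly, at 5.6622 against 5.6544 before centring. The 6 nearest genes were chosen over all 6 arrays, so their likeness in this liver is partly built in.

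The wider pathway was read in 11 lists of sensors, ligands, receptors, regulators and substrates, of which 116 of 145 genes were measured. None passed an adjusted p of 0.05 over all genes (limma, Benjamini-Hochberg), where 0 of 27642 genes, or 0%, passed. The smallest adjusted p among the 116 was 0.376. An unadjusted p under 0.05 was reached by 8 of them, or 6.9%, beside 9.2% of all genes. Of these 3 were higher and 5 lower in TCEP, where 5.01% of all genes were higher and 4.19% lower at that level. The TCEP values lay wholly above the corn oil values in 5 (4.31%) and wholly below in 9 (7.76%). No member of these lists differed by as much as a log2 unit, the range being -0.94 to 0.90 and the median -0.01, beside a median of 0.00 over all genes.

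**Figure D4:**
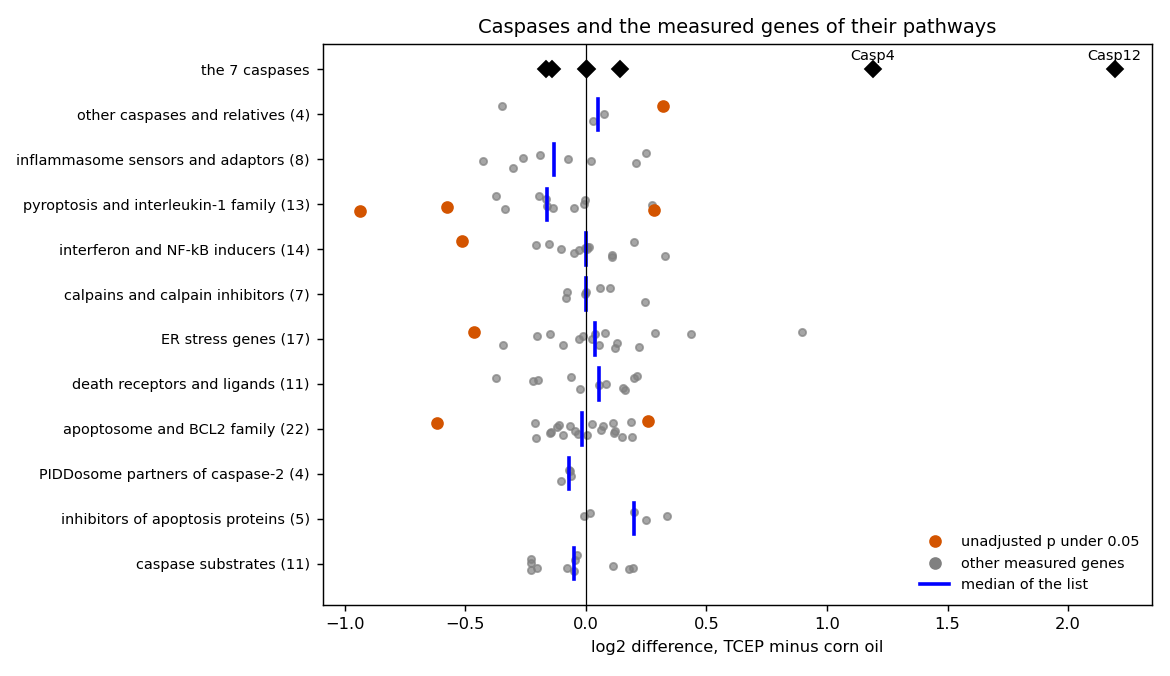
Log2 differences, TCEP minus corn oil, of the 7 caspases (diamonds) and of the measured genes of the 11 pathway lists (1 point per gene, number measured in brackets), with blue bars at list medians and orange points for an unadjusted p under 0.05. Casp12 at 2.19 and Casp4 at 1.19 lie beyond every listed gene.

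Among the relatives of the caspases, Cflar, the decoy that restrains caspase-8, had a log2 difference of -0.35 ± 0.23 (SE, limma). Casp14, a caspase of the skin, was not well above background by either of its probes.

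Among the 8 measured inflammasome sensors and adaptors, which activate the inflammatory caspases, 3 had a higher and 5 a lower TCEP mean, where 50.9% of all genes had a higher one. Their median was -0.13 (-0.24 without corn oil replicate 1 and -0.04 with corn oil replicate 3 left out), and 0 passed the unadjusted level. Nlrp3, the sensor of the best-studied inflammasome, had 0.02 ± 0.24 (SE, limma) and was well above background on 1 of 3 corn oil arrays, and Pycard had -0.26 ± 0.28. Of 13 measured genes of pyroptosis and the interleukin-1 family 11 had a lower mean, with a median of -0.16 (-0.03 without corn oil replicate 2). Here 1 was higher and 2 were lower at the unadjusted level. Il1b and Il18, the cytokines that caspase-1 matures, had -0.16 ± 0.32 and -0.14 ± 0.28. The receptor antagonist Il1rn had 2.54, 3.06 and 1.69 in the TCEP livers and 3.28, 3.57 and 3.24 in the corn oil livers, so every TCEP liver was lower, with a difference of -0.94 ± 0.34 (-0.56 without TCEP replicate 3). Il1a had -0.58 ± 0.21 (-0.34 without corn oil replicate 2) and the receptor subunit Il1rap 0.28 ± 0.09, also with groups that did not overlap. Gsdme, a pore-forming gasdermin, was not well above background, and Gsdmd was not analysed here.

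Transcription factors and pattern receptors that induce inflammatory caspases had a median of 0.00 over 14 measured genes, with 0 higher and 1 lower at the unadjusted level. That gene was Irf8, a factor of myeloid cells, with -4.26, -4.24 and -4.08 in the TCEP livers and -3.86, -3.51 and -3.66 in the corn oil livers, a difference of -0.51 ± 0.12 (SE, limma) that was -0.25 with normexp background correction. Each TCEP liver was lower than each corn oil liver. Irf1 and Irf2, which bind the repeat shown in the Casp12 and Casp1 windows, had -0.21 ± 0.30 and 0.00 ± 0.13.

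Genes tied to caspase-12 at the endoplasmic reticulum showed no common shift. Over 17 measured stress genes the median was 0.04, 10 had a higher and 7 a lower mean, and 0 were higher and 1 lower at the unadjusted level. The chaperone Hspa5 had -0.03 ± 0.12 (SE, limma), the stress sensor Ern1 0.04 ± 0.16, its partner Traf2 -0.09 ± 0.13 and the death-promoting factor Ddit3 -0.34 ± 0.20. Ppp1r15a, which restores translation after stress, had 1.03, 0.86 and 1.02 in the TCEP livers and 1.66, 1.30 and 1.33 in the corn oil livers, all TCEP values being the lower ones, with a difference of -0.46 ± 0.13. The 7 measured calpain genes, whose products can process caspase-12, had a median of 0.00 and 0 members at the unadjusted level in either direction. Their values were 0.24 ± 0.26 for Capn1, 0.00 ± 0.12 for Capn2 and 0.10 ± 0.22 for the shared small subunit Capns1.

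Upstream of caspase-8, 11 measured death receptor genes had a median of 0.06, with 0 at the unadjusted level. The receptors Fas and Tnfrsf1a had -0.20 ± 0.45 and -0.22 ± 0.14 (SE, limma), the adaptor Fadd 0.16 ± 0.33, and Ripk3, a kinase of necroptosis, -0.06 ± 0.34. The death receptor of TRAIL and Mlkl were not analysed here. Upstream of caspase-9, 22 measured genes of the apoptosome and BCL2 family had a median of -0.02, with 1 higher and 1 lower at the unadjusted level. Endog, a mitochondrial nuclease, had 0.79, 0.84 and 0.89 in the TCEP livers and 1.66, 1.36 and 1.36 in the corn oil livers, a difference of -0.62 ± 0.12 with no overlap. Htra2, a mitochondrial protease that relieves caspase inhibition, had 0.26 ± 0.09. The apoptosome scaffold Apaf1 had -0.12 ± 0.11 and cytochrome c, Cycs, 0.15 ± 0.12. The pore formers Bax and Bak1 had -0.06 ± 0.15 and -0.15 ± 0.12, the caspase-8 substrate Bid -0.03 ± 0.10, and the survival factors Bcl2l1 and Mcl1 -0.11 ± 0.16 and -0.04 ± 0.12.

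The remaining lists held 0 genes at the unadjusted level. The 4 PIDDosome partners of caspase-2 had a median of -0.07, with -0.10 ± 0.16 (SE, limma) for the scaffold Pidd1 and -0.07 ± 0.40 for the adaptor Cradd. The 5 measured inhibitors of apoptosis had a median of 0.20 (0.05 without TCEP replicate 1 and 0.44 without TCEP replicate 2), with -0.01 ± 0.23 for Xiap and 0.25 ± 0.30 for Birc2. The 11 measured caspase substrates had a median of -0.05, with 0.11 ± 0.09 for the caspase-6 substrate Lmna and 0.18 ± 0.12 for Parp1.

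Other cell types of the liver were read through marker lists, each set beside the caspases without a test of its part in them. The median log2 difference was -0.09 over 10 hepatocyte, -0.19 over 3 neutrophil, -0.01 over 11 T and NK cell, 0.20 over 5 B and plasma cell, -0.05 over 6 endothelial, -0.11 over 10 stellate cell, 0.22 over 7 cholangiocyte and -0.05 over 6 erythroid markers. Single arrays moved several of these medians. With corn oil replicate 2 left out the neutrophil value became 0.45, and with corn oil replicate 3 left out it became -0.90. Leaving out TCEP replicate 1 gave -0.31 for T and NK cells, and leaving out TCEP replicate 2 gave 0.21. The cholangiocyte median was 0.43 and the erythroid median -0.32 without corn oil replicate 3, the B and plasma cell median 0.31 without TCEP replicate 2, and the stellate cell median -0.03 without TCEP replicate 3. The hepatocyte median ran from -0.15 to -0.03 and the endothelial median from -0.10 to 0.02 over the alternatives. The neutrophil markers Elane, Csf3r, Cxcr2 and Mmp8 were not well above background on all arrays of either group. No marker passed the adjusted threshold (limma, Benjamini-Hochberg). At the unadjusted level the cholangiocyte markers Epcam and Spp1 were higher in TCEP, by 0.52 ± 0.16 and 1.04 ± 0.35 (SE). The stellate cell marker Lrat was lower at that level, with -0.43 ± 0.15. These were 2 of 7 cholangiocyte and 1 of 10 stellate cell markers, and no marker of the other lists reached that level. Over all genes 9.2% did. Of the 7 cholangiocyte markers 6 had a higher TCEP mean, and Krt7 had a lower one, with -0.27 ± 0.18. The summed cholangiocyte signal ranged from 3.03 to 3.78 in TCEP and from 2.49 to 2.81 in corn oil, groups that did not overlap. The same held for the B and plasma cell sum (2.32 to 3.06 in TCEP, 2.01 to 2.16 in corn oil) and, in the lower direction, for the stellate cell sum (38.3 to 40.0 in TCEP, 40.3 to 43.9 in corn oil). Averaged as centred log2 values, as done above for macrophages, each of these lists had overlapping groups. For cholangiocytes TCEP replicate 3, at -0.0737, lay below corn oil replicate 3, at -0.0706. For B and plasma cells TCEP replicate 1, at -0.0396, lay below corn oil replicate 2, at -0.0149. For stellate cells corn oil replicate 1, at -0.0735, was the lowest liver. The part of any of these cell types in the caspase values was not tested.

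**Figure D5:**
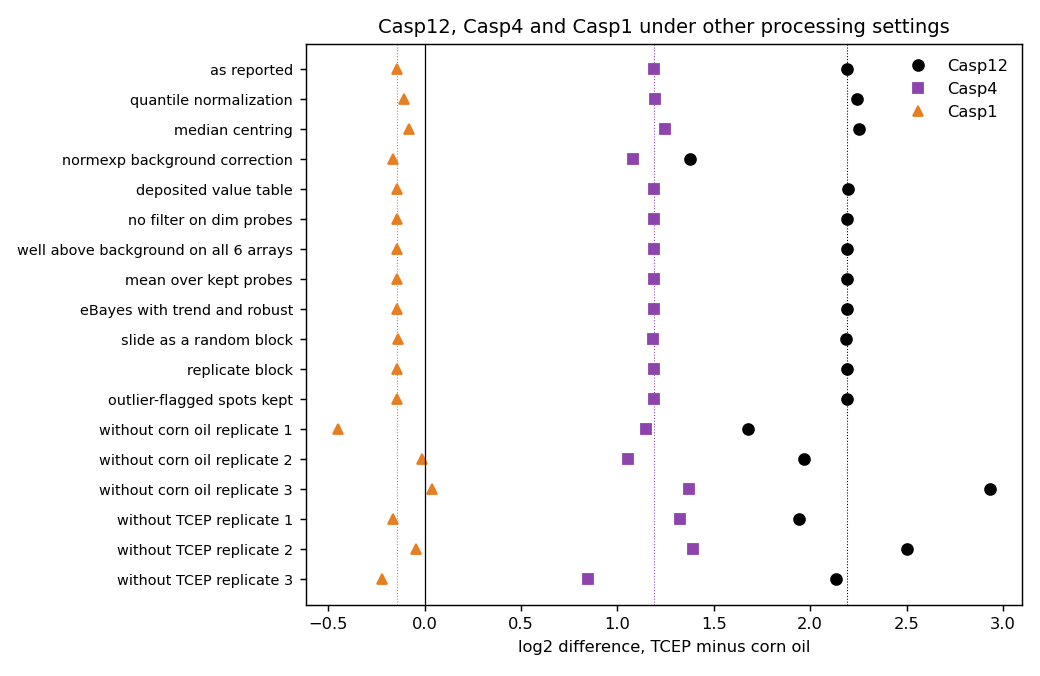
Log2 difference, TCEP minus corn oil, of Casp12, Casp4 and Casp1 as reported and under each other setting or with 1 array left out, with dotted lines at the reported values. Casp12 runs from 1.37 with normexp background correction to 2.93 without corn oil replicate 3, Casp4 from 0.85 to 1.39, and Casp1 from -0.45 to 0.04.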

How the data were processed

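Per the file headers, the authors scanned 6 single-colour Agilent arrays (1 per animal, 3 per group) and read spot intensity with Feature Extraction, version 10.7.1.1 by those headers and 10.7 by the submitters' processing notes. The deposited processed signal is a background-subtracted intensity. The authors' value table is a ratio of each signal to its array's 75th percentile, as its values show.

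Values used here are log2 of the processed signal minus the 75th percentile of each array over 61657 non-control probes. Control spots and 64 outlier-flagged spots were left out. A probe was kept if either group had it well above background on every array, and the brightest stands for a gene. Between 57.2% and 64.4% of probes per array were well above background, array pairs correlated at 0.986 or more, and the median SE of a log2 difference was 0.145. The number of arrays limits the precision. Symbols came from a RefSeq table (GRCr8) matched by unversioned accession (27460 probes). The array design names another build, so gene coordinates are given only for promoter windows.

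Groups came from the treatment label, replicate numbers from the titles, and the labels speak of animals. Genes outside the caspases were tested two-sided with limma (3.58.1, under R 4.3.3), and p-values were adjusted over all genes by Benjamini-Hochberg at 0.05. The fit was tested on simulated data. Named genes were all 7 caspases, pathway genes fixed by role, and from each list up to 3 genes with the smallest unadjusted p under 0.05. Some of these genes are not reported here. The members, lists and motifs were chosen with earlier results of these data known. Alternatives were quantile normalization, median centring, normexp (offset 50, on the median signal, as the files used here have no mean signal), the deposited table, other probe filters, the mean over probes, eBayes with trend and robust, slide and replicate blocks, outlier spots kept, and each array left out.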

Additional observations from a re-analysis of the deposited data

How the results depend on the processing

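In all 17 alternatives 0 genes passed the adjusted threshold and 0 pathway genes did, with a smallest adjusted p between 0.06 (without corn oil replicate 3) and 0.743 (without TCEP replicate 3). Genes at an unadjusted p under 0.05 numbered 2543, and 1644 without TCEP replicate 3, and pathway genes at that level numbered 8, 3 without TCEP replicate 1 and 5 with the replicate block. Same-numbered livers did not deviate together (correlations of -0.0483, -0.165 and -0.015, against -0.0659 to 0.116 for other pairs). The main fit left the number out. These few values, from n = 3 per group, cannot show that the number carries no pairing. With the replicate block the differences stayed at 2.19 for Casp12, 1.19 for Casp4 and -0.14 for Casp1, as they must in a balanced design, and 0 genes passed. With 1 array left out the differences ran from 1.68 to 2.93 for Casp12, 0.85 to 1.39 for Casp4, -0.45 to 0.04 for Casp1 and 0.83 to 1.49 for inflammatory minus apoptotic caspases. Because the groups of Casp12 and Casp4 did not overlap, leaving out an array cannot turn their direction. Casp12 was 1.37 with normexp, and the cause was not tested. Casp1, Casp6 and Casp8 changed sign in 1, 3 and 4 alternatives. Of 116 measured pathway genes 67 changed sign in at least 1 alternative, as did 7 of the 11 pathway and 5 of the 9 marker medians.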
